A study of Mus musculus with 282 samples.

Results

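The transcripts described here are the spliced transcripts of the merged hypothalamus assembly that lay outside the gene annotation used by the study. They were chosen as every assembled transcript with the Cuffcompare class code u, which marks a transcript with no annotated gene at its place, and at least 2 exons. Of 51024 transcripts in the deposited assembly, 485 had class code u, and 204 of these, in 139 loci, had at least 2 exons. Each of the 204 had a row of expression values, in FPKM, which are fragments scaled by transcript length and by the mapped fragments of the mouse. The study sequenced unstranded mRNA libraries of whole hypothalamus of males from 99 strains of the Hybrid Mouse Diversity Panel. Every mouse was fed a high fat, high sugar diet, so no control diet or other treatment was compared. The strains were 43 BXD strains, derived from C57BL/6J and DBA/2J, 18 AXB and BXA strains, derived from A/J and C57BL/6J, 6 BXH strains, derived from C57BL/6J and C3H/HeJ, 7 CXB strains, derived from BALB/c and C57BL/6, and 25 inbred strains. Mapped reads ranged from 5617305 to 22265723 per mouse, and FPKM carry no counts, so errors are given as the SD over mice. In bulk tissue, fewer cells of a type and less RNA per cell cannot be told apart.

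The 282 deposited profiles stood for 281 mice. Of the 3 profiles of CXB-6/ByJ, 2 held the same values up to a constant ratio of 0.995, differed by less than sampling noise, and were counted as 1 mouse. Of the remaining mice, 280 had 1 strain in their labels, so that 84 strains had 3 mice, 13 had 2 and 2 had 1. The library of mouse OB-547, of BXD-12/TyJ, stood apart with a summed gene FPKM of 792801, against a median of 337533 and a next highest value of 463433, and strain means and counts that rest on it are given with and without it. All 8 hypothalamus markers were measured, with a summed FPKM from 584 to 7742. The summed FPKM of the 5 measured anterior pituitary markers ranged from 0 to 15545 with a median of 18.8, and the part of such tissue in the results was not tested.

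Transcripts outside an annotation are of several known kinds. Long non-coding RNAs are spliced and often weakly expressed, and many start head to head with a protein-coding gene at a shared promoter. Processed pseudogenes are intronless copies of an mRNA that a retrotransposon machinery wrote back into the genome, and a copy that is close in sequence to its source gene shares short reads with it. Copies of mitochondrial DNA also lie in the nuclear chromosomes. Strains of inbred mice differ in the copies that they carry, and the mm10 genome, to which all reads were aligned, is the genome of C57BL/6J.

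Sequences of 5 copies and their source genes are shown because most of the summed expression and most of the largest strain differences described below lay in such transcripts. Each is a window of 60 bases from GENCODE M21 transcripts on GRCm38, the same build as mm10. Capitals mark the letters that differ between copy and source. Each window was that with the most differing letters in the coding part, up to a set limit and with none near its edges. The numbers of differing letters are thus not typical of the whole copy. The copy of mitochondrial cytochrome b in locus XLOC_025600 (chr4:80004827-80004886, + strand) differed from mt-Cytb (chrM:14983-15042, + strand) at 7 letters. Atp6v0c-ps2 in XLOC_029050 (chr6:37806166-37806225, + strand) differed at 1 letter from Atp6v0c (chr17:24164822-24164881, − strand), which encodes the proteolipid subunit of the vacuolar proton pump. Mrpl48-ps in XLOC_025637 (chr4:88599376-88599435, − strand) differed at 3 letters from Mrpl48 (chr7:100552615-100552674, − strand), which encodes a protein of the mitochondrial ribosome. Gm15772 in XLOC_027629 (chr5:3236577-3236636, + strand) differed at 1 letter from Rpl26 (chr11:68902421-68903216, + strand, over an exon junction), which encodes a protein of the cytosolic ribosome. Nudc-ps1 in XLOC_034423 (chr8:29286852-29286911, − strand) had 0 differences in this window from Nudc (chr4:133534401-133534460, − strand), which encodes a dynein-associated protein.
XLOC_025600: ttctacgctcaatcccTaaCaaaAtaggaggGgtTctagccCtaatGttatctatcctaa
mt-Cytb: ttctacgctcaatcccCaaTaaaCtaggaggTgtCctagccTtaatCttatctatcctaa
XLOC_029050: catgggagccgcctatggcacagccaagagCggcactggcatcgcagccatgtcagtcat
Atp6v0c: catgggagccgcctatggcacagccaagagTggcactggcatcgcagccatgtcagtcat
XLOC_025637: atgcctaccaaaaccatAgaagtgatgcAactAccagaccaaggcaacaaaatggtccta
Mrpl48: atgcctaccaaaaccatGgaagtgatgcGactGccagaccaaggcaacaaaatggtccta
XLOC_027629: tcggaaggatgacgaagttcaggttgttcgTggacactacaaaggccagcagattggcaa
Rpl26: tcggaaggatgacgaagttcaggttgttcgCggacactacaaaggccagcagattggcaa
XLOC_034423: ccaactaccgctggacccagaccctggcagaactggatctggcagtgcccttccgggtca
Nudc: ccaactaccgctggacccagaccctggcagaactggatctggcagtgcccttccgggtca

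The 204 transcripts had few exons and were shorter than annotated transcripts as a whole, but longer than the groups most like them. Their median length was 1443.5 nt, with quartiles of 577 and 2940 nt and a range from 122 to 23342 nt, and the median was 797 nt for the 281 single-exon transcripts of class u, 744 nt for 8449 known non-coding transcripts with 2 or more exons and 2730 nt for all transcripts. There were 118 transcripts with 2 exons, 49 with 3, 19 with 4, 12 with 5 and 6 with more. The share with 2 exons was 57.8% (95% Wilson interval 51 to 64.4%), and it was 66.9% when 1 transcript was taken per locus. In most of them the sequence was held by 1 long exon, which made up a median of 87.7% of the length. Of the 139 loci, 31 had more than 1 member. The members lay on 20 chromosomes, with 32 on chromosome 7, 26 on chromosome 5 and 20 on chromosome 4.

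The longest was TCONS_00094330 (chr13:28395840-28420120, 23342 nt, 3 exons), over the later annotated lincRNA gene Gm40841. The longest of other loci were TCONS_00255897 (19675 nt), which lay opposite Smarcd3, a subunit of a chromatin remodelling complex, TCONS_00313488 (14139 nt), TCONS_00381458 (14065 nt) and TCONS_00321719 (10178 nt). None of these 5 had a mean above 1 FPKM, with means from 0.523 to 0.894 FPKM. TCONS_00323499 had the most exons, 8, all with introns of Nup98, a nuclear pore gene, in the later annotation. The locus with the most members, XLOC_026701 (12 transcripts), lay over Lhfpl3, and its transcripts shared their last position and had means from 0.755 to 3.25 FPKM. Values of its members were not independent, since TCONS_00255535 and TCONS_00255537 had the same highest value of 10.3 FPKM.

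Against GENCODE M21, a later annotation than the GENCODE M2 of the study, fewer of the 204 would count as unannotated. There were 18 transcripts with every intron in M21, 34 with some, 72 with only an exon on an exon of the same strand, 27 with an exon on the opposite strand only, and 53 with no exon on an M21 exon. Of 355 introns in all, 78 were M21 introns and 31 were M21 introns shifted by 1 to 5 bases. Also, 15 loci with 24 members held an annotated gene of the deposited assembly. An exon lay on a pseudogene in 59 transcripts of 38 loci, 28.9% of the 204, against 49.8% of single-exon transcripts of class u. Among the 27 on the opposite strand only were TCONS_00248944 over Gm11410, TCONS_00272887 over Gm15772, TCONS_00250673 over Gm12892 and TCONS_00329322 over Nudc-ps1. A pseudogene name stands here for the transcript over it, on either strand. The libraries carry no strand, so the strand of its reads was not measured.

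Transcripts over pseudogenes often had a very short end exon, although processed pseudogenes are intronless. The shorter end exon was 15 nt or less in 44.1% of 59 transcripts over pseudogenes and in 7.59% of the 145 others. Their introns were up to 296459 bp long, the longest being that of TCONS_00250673 over Gm12892, which joined an end exon of 9 nt to the copy of Ckb, the brain creatine kinase. Introns shorter than 70 bp, at a minimum of 22 bp, were found in 11 transcripts. Whether these end exons belong to the transcribed RNA was not tested.

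**Figure D1:**
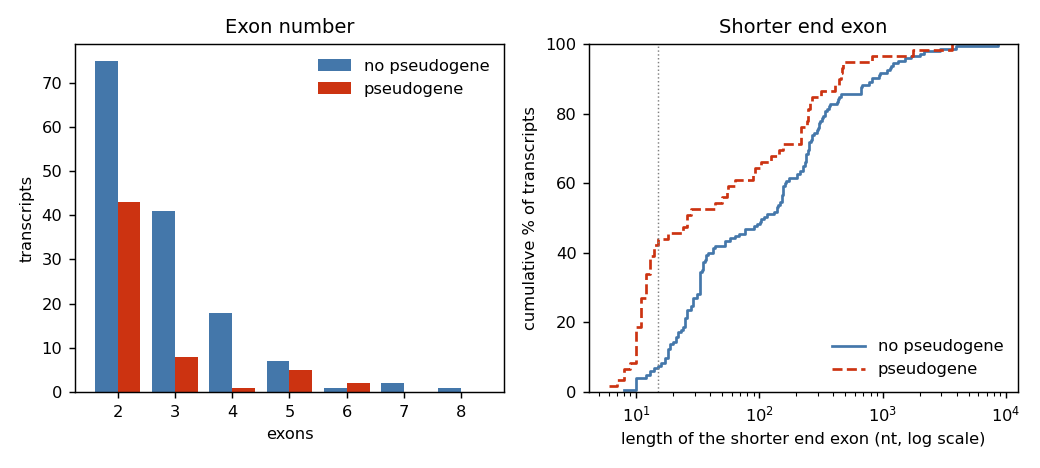
Left, number of the 204 transcripts by exon number, for the 59 with an exon over a pseudogene (red) and the 145 without (blue). Right, cumulative percentage of transcripts (vertical axis) by the length of the shorter end exon in nt (log axis), where 44.1% of transcripts over pseudogenes and 7.59% of the others lay at or below the dotted line at 15 nt.

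Sequence shared with other annotated genes was concentrated in the transcripts over pseudogenes. For 149 transcripts with at least 1 stretch of 50 bases in M21 exons, the share of such 50-base words that also occurred in another M21 gene was computed. It was 0 in 90 of them, and it was at least 50% in 24 (16.1%, 95% Wilson interval 11.1 to 22.8%), of which 23 lay over pseudogenes. The median was 42.1% over pseudogenes and 0 elsewhere. The share was 90.1% for the transcript over Atp6v0c-ps2, 89.8% for Gm15772, 88.4% for Nudc-ps1, 49.1% for Mrpl48-ps and 30.5% for Glns-ps1, a copy of the glutamine synthetase gene Glul. The reads were as long as these words and could be assigned to up to 10 places, so reads of a copy and its source gene cannot be fully told apart in these values.

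Levels were low for most of the 204 transcripts and very high for a few. The median of the mean FPKM was 1.11, with quartiles of 0.758 and 2.76, against 1.61 over all transcripts, where the deposited table holds only features above 1 FPKM in at least 50 mice. A mean of at least 10 FPKM was reached by 16 transcripts, and 31 were above 0 in all 281 mice. Together they made up a median of 1.30% of the summed transcript FPKM of a mouse, with a range from 0.648 to 2.98%. The 9 transcripts of XLOC_025600 and XLOC_024452, which overlap on opposite strands of chromosome 4 over Gm11410, held 82.2% of this sum. Without them the median was 0.229%. FPKM are scaled by length, so these are not shares of reads.

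The highest was TCONS_00248944 of XLOC_025600 (chr4:79982218-80005085, 354 nt), which matched the mitochondrial gene mt-Cytb over 374 aligned positions, gaps included, at 86.4% identity. It ranged from 792 to 6958 FPKM over 281 mice, with a median of 2025 and a mean of 2045 ± 499 (SD). As whole genes, the nuclear lncRNAs Meg3 and Malat1 had 854 ± 93.3 and 278.2 ± 59.5 FPKM (SD, n = 281 each). 6330403K07Rik had 327 ± 69.9, Miat 64.7 ± 9.75 and Snhg4 4.04 ± 1.06 FPKM. FPKM are scaled by length, so a transcript of 354 nt and a whole gene are not ranked by reads in these values. TCONS_00235998 of XLOC_024452, a 92.9% match to mt-Cytb, had 457.9 ± 125 FPKM. Mitochondrial genes themselves were not analysed here, so the share of mitochondrial reads in these values was not tested.

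Outside these loci, the highest mean was that of TCONS_00235841 of XLOC_024435, 133 ± 276.98 FPKM. The transcripts over Atp6v0c-ps2, Gm15772 and Gm12892 followed with means of 80.8, 42.5 and 42.2 FPKM and SDs of 57.5, 62.3 and 47.2. TCONS_00321749 on chromosome 7, the shortest of all with 122 nt, had 36.2 ± 29.4 FPKM and was above 0 in 230 mice. A transcript of 569 nt over Lsamp, which encodes a neuronal adhesion protein, had 11.2 ± 3.38 FPKM and was above 0 in 280 mice. Its SD was thus far smaller, relative to its mean, than that of the 3 transcripts over Atp6v0c-ps2, Gm15772 and Gm12892, and it did not pass the strain test described next (strain share 0.0049, limma adjusted p = 0.531).

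Differences among strains were tested with the moderated F test of limma on log2(FPKM + 1), with Benjamini-Hochberg adjustment over all 51024 transcripts at a threshold of 0.05. Of all transcripts 45.9% passed, and of the 204 transcripts 122 passed (59.8%), with 76.2% of single-exon transcripts of class u and 27.6% of known non-coding transcripts with 2 or more exons. The median share of variance between strains was 0.183 among the 204 and 0.113 among all. A share above 0.5 was found in 44 of the 204 (21.6%) and in 8.27% of all transcripts. Summed by locus, 117 of 139 loci passed (84.2%), where 74.9% of all 14079 loci did.

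The transcripts over pseudogenes had the larger share of strain differences. Of these, 49 of 59 passed the test (83.1%) with a median share of 0.475, and of the 145 others 73 passed (50.3%) with a median share of 0.128. Transcripts with no exon on an M21 exon lay close to the latter, with 30 of 53 (56.6%) and 0.172. Of all 37 transcripts with an end exon of 15 nt or less 73% passed, against 56.9% of the 167 others. Among the pseudogene transcripts alone the order was the other way, with 76.9% of the 26 that had such an end exon and 87.9% of the 33 that had none.

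**Figure D2:**
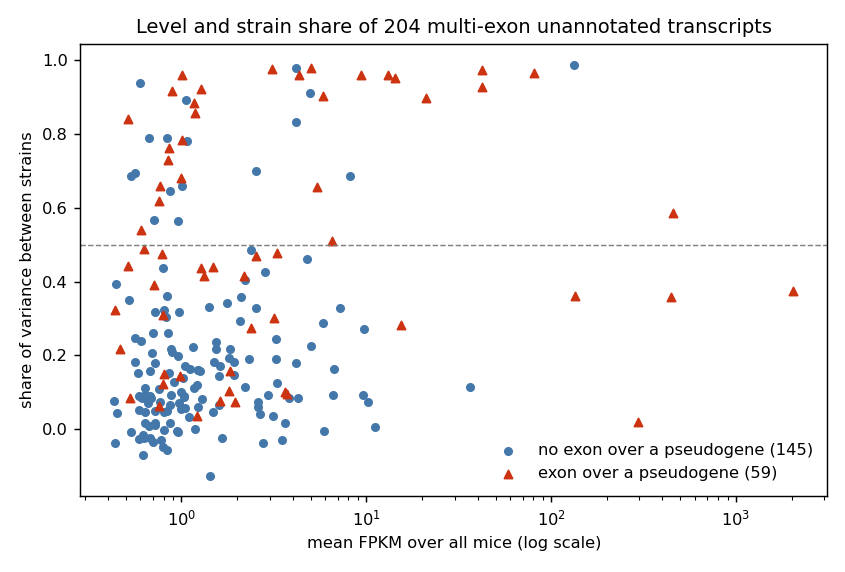
Share of variance between strains (vertical axis) against the mean FPKM over 281 mice (log axis) for each of the 204 transcripts, as red triangles where an exon lay over a pseudogene (59) and blue points elsewhere (145). The dashed line marks a share of 0.5, which 44 transcripts exceeded.

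The largest strain share, 0.987, was that of TCONS_00235841 of XLOC_024435 (chr4:69925205-69934039, + strand, 270 nt). It was at or near 0 in most mice, with a median of 4.81e-06 FPKM, and its strain mean was below 0.1 FPKM in 62 of 99 strains. In the other 37 strains the mean was between 51.2 and 1500 FPKM, the latter in BXD-12/TyJ, the strain of mouse OB-547. Without this mouse, which had 3848 FPKM, the mean of BXD-12/TyJ was 326 FPKM over 2 mice and the highest strain mean was 512 FPKM, in CXB-3/ByJ. On the opposite strand, 96.3% of its length was shared with TCONS_00248806 over Gm11223, a copy of the microtubule regulator gene Stmn1, and the libraries without strand cannot tell the reads of these apart. Shares between 0.958 and 0.978 were found for XLOC_007675, Glns-ps1, Gm20056 (a copy of Chp1, a calcium-binding protein gene), Gm15772, Atp6v0c-ps2, Bod1-ps, Gm11223, Gm11942 and Mrpl48-ps. Of these 10 leading transcripts, 8 lay over pseudogenes.

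In 29 transcripts of 26 loci, 19 of them over pseudogenes, strain means fell into 2 separate clusters, with a gap of at least 15% of the range on the log2 scale and at least 6 strains on each side. C57BL/6J was in the low cluster for 23 of them and in the high cluster for 6. The recombinant strains were set beside the clusters of their parents. Where the parents differed, each strain lay in the cluster of a parent by definition, since there were only 2 clusters. In the 10 transcripts for which C57BL/6J and DBA/2J lay in the same cluster, all 43 BXD strains lay in it for 7, and in the 19 for which these parents differed, BXD strains were found in both clusters for all 19. In the AXB and BXA strains the corresponding numbers were 10 of 13 and 16 of 16, and in the 6 BXH strains 8 of 11 and 16 of 18. These clusters are a description, with no test.

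The transcript over Gm15772, the copy of Rpl26, showed both cases. The 3 A/J mice had 123.1, 107.5 and 122 FPKM and the 3 C3H/HeJ mice 122.6, 135 and 173, while the C57BL/6J mice had 0.730, 2.04e-05 and 0 and the DBA/2J mice 2.60, 1.002e-05 and 9.86e-06. The parents of the BXD strains were thus both low, and all 43 BXD strains lay in the low cluster, at 3.20 FPKM or less. Among the AXB and BXA strains 7 were low and 11 were high, at 79.4 FPKM or more. Rpl26 itself had 46.8, 58.8 and 55.7 FPKM in A/J and 274.1, 238 and 235 in C57BL/6J, with no overlap.

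Bod1-ps, a copy of a gene for chromosome orientation at mitosis, was high in C3H/HeJ (3.93, 4.28 and 4.80 FPKM) and at or near 0 in C57BL/6J (0.198, 0 and 0), DBA/2J (0, 0.106 and 0) and A/J (0, 0.124 and 0). All 43 BXD and all 18 AXB and BXA strains were low, and of the BXH strains 2 were low and 4 high. For TCONS_00037030 on chromosome 10, near the kinase gene Sgk1 at 56825 bp, C57BL/6J was the high parent (4.16, 3.16 and 3.26 FPKM) and A/J was at 0 in all 3 mice. The AXB and BXA strains parted into 8 low and 10 high.

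DBA/2J and C57BL/6J, the parents of the BXD strains, were compared in the same fit (3 mice each). Of all 51024 transcripts 985 differed (1.93%), and of the 204 transcripts 27 differed (13.2%), in 22 loci. Higher levels in DBA/2J were found for 25 of the 27, where 0.996% of all transcripts were higher in DBA/2J, and lower levels for 2, where 0.935% of all were lower. The direction was divided evenly among all transcripts called, with 51.6% higher in DBA/2J, and among known transcripts with 45.8%, while 68 of 72 single-exon transcripts of class u (94.4%) were higher. The median log2 difference of all transcripts was 0.001. With the spread estimated from the 6 mice alone, 16 of the 204 differed, all higher in DBA/2J. The 204 transcripts had to lie outside the annotation and be above 1 FPKM in at least 50 mice of any strain. A transcript near 0 in C57BL/6J could thus enter through other strains, as TCONS_00043208 did with 63 mice above 1 FPKM. The part of this choice in the direction was not tested.

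Of the 27, 20 lay over pseudogenes. In the transcript over Atp6v0c-ps2 (TCONS_00282250) the C57BL/6J mice had 14.2, 8.85 and 7.78 FPKM and the DBA/2J mice 102, 144 and 141. The difference was 3.55 on the log2(FPKM + 1) scale (SE 0.26, limma adjusted p = 1.34e-26). Every DBA/2J mouse was far above every C57BL/6J mouse.

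TCONS_00235841 was at 0 in all 3 C57BL/6J mice and had 373, 373 and 407 FPKM in DBA/2J, with a log2(FPKM + 1) difference of 8.59 (SE 0.37, limma adjusted p = 1.54e-51). Glns-ps1 (TCONS_00043208) had 0, 0.679 and 7.73e-06 FPKM in C57BL/6J and 21.2, 18.7 and 19.7 in DBA/2J, a difference of 4.13 (SE 0.23, limma adjusted p = 1.22e-37). In these transcripts too the groups were far apart. The transcript over Gm12892 (TCONS_00250673), the copy of Ckb, had 4.85, 4.52 and 3.85 FPKM in C57BL/6J and 61.1, 81.2 and 89.1 in DBA/2J, a difference of 3.84 (SE 0.41, limma adjusted p = 1.92e-14).

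The transcript over Nudc-ps1 (TCONS_00329322), assembled on its opposite strand, had 0.859, 0.699 and 0.827 FPKM in C57BL/6J and 21.1, 26.1 and 24.6 in DBA/2J. The difference was 3.79 (SE 0.34, limma adjusted p = 2.24e-19). TCONS_00343139 over Gm10358 had 0.725, 0 and 0.427 FPKM in C57BL/6J and 14.7, 21.5 and 17.9 in DBA/2J, with a difference of 3.80 and a larger SE of 0.96 (limma adjusted p = 0.0086). Its spread within other strains was wide, and the 3 A/J mice had 0.382, 11.6 and 0 FPKM.

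Transcripts away from pseudogenes were found among the 27 as well. TCONS_00079800 of XLOC_007675 (chr12:10092722-10160214, 872 nt), with no exon on an M21 exon, was at or near 0 in the 3 C57BL/6J mice and had 12.4, 10.7 and 15.5 FPKM in DBA/2J, a difference of 3.78 (SE 0.19, limma adjusted p = 3.76e-43). The 2 transcripts lower in DBA/2J were TCONS_00263274 of XLOC_027154, also with no exon on an M21 exon, and TCONS_00313498 of XLOC_032069, over a pseudogene and described further on. The first had 1.14, 3.49 and 0.807 FPKM in C57BL/6J and 0.215, 0.168 and 0.153 in DBA/2J, a difference of −1.14 (SE 0.31, limma adjusted p = 0.025).

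The BXD strain means of the 27 transcripts mostly lay near one parent or the other. For 9 of them no BXD strain had a mean between 25 and 75% of the way from C57BL/6J to DBA/2J, and for 16 at most 2 strains did. For Atp6v0c-ps2, 23 BXD strains were near C57BL/6J and 20 near DBA/2J, with no strain mean between 15.6 and 107.8 FPKM. For Glns-ps1 the numbers were 27 and 16, with no strain mean between 0.415 and 18.9 FPKM. The highest BXD mean of Gm12892, 244 FPKM in BXD-12/TyJ, rested on mouse OB-547 with 589.5 FPKM. Without this mouse the mean of that strain was 71.5 FPKM, and the highest strain mean was 94.5 FPKM in BXD56. The same strain had the highest mean of Nudc-ps1, with 70.6 FPKM and 23.0 without the mouse, and of Mrpl48-ps, with 21.8 FPKM and 9.37 without it. The number of the 204 that differed between the parents was 27 with and without it, of 985 and 1158 of all transcripts.

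**Figure D3:**
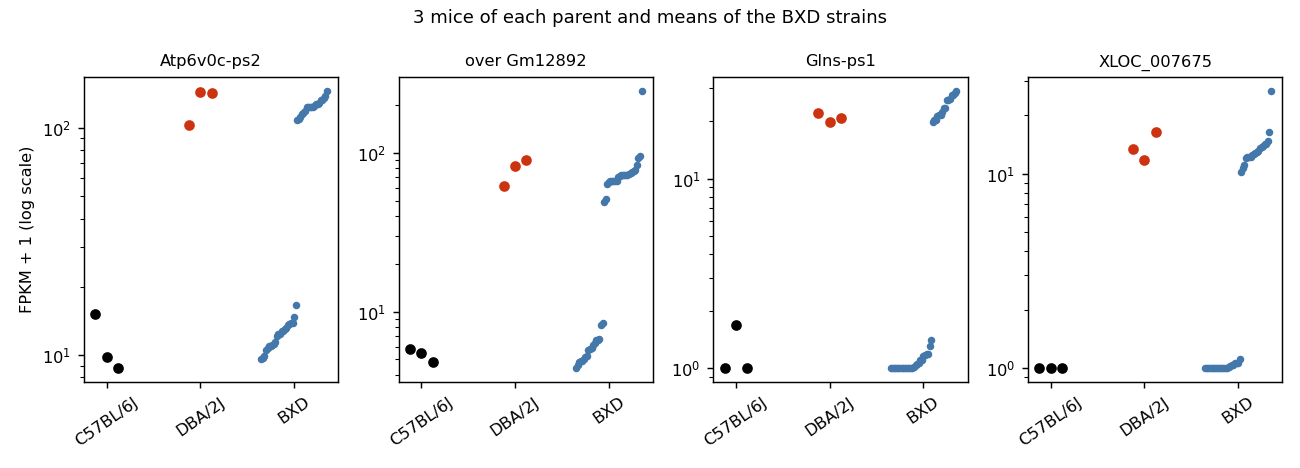
FPKM + 1 (log axis) in the 3 mice of C57BL/6J (black), the 3 mice of DBA/2J (red) and as means of the 43 BXD strains in rising order (blue), for the transcripts over Atp6v0c-ps2, Gm12892 and Glns-ps1 and for TCONS_00079800 of XLOC_007675. In each panel the BXD strains lay in a low group at the level of C57BL/6J and a high group at the level of DBA/2J.

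The source genes of the copies were examined next, to ask whether the annotated gene moved where its copy did. A protein-coding source gene with a measured level was found for 43 transcripts of 29 loci (26 source genes), at a median identity of 98.4%, and 40 of the 43 were below the level of their source. Of the 27 transcripts that differed between the parents 19 had such a source, in 14 genes. Summed by gene, 6 of the 14 source genes differed, all 6 lower in DBA/2J, where 3.68% of 12874 annotated genes differed, 2.07% lower and 1.61% higher.

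Atp6v0c had 182, 170.6 and 169 FPKM in C57BL/6J and 42.997, 53.7 and 55.9 in DBA/2J, a log2(FPKM + 1) difference of −1.76 (SE 0.16, limma adjusted p = 4.71e-19). The groups did not overlap, and the order was opposite to that of Atp6v0c-ps2. The sum of copy and gene was 184 ± 10.6 FPKM in C57BL/6J and 180.004 ± 29.96 in DBA/2J (SD, n = 3 each). FPKM are scaled by the length of each transcript, so such a sum does not count reads and is only a description. Mrpl48-ps (TCONS_00249222) had 0, 0.392 and 0.556 FPKM in C57BL/6J and 10.1, 12.2 and 9.25 in DBA/2J (difference 3.15, SE 0.22, limma adjusted p = 1.41e-28), and Mrpl48 had 52.7, 38.6 and 50.7 FPKM in C57BL/6J and 9.71, 20.5 and 15.7 in DBA/2J (difference −1.61, SE 0.21, limma adjusted p = 6.49e-10).

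The sum of Mrpl48 and Mrpl48-ps was 47.7 ± 7.54 FPKM in C57BL/6J and 25.8 ± 6.49 in DBA/2J (SD, n = 3 each). Glul fell from 472.3 ± 19.0 to 244 ± 17.5 FPKM (difference −0.95, limma adjusted p = 3.51e-17), and Glns-ps1 had 19.9 FPKM in DBA/2J. Smaller differences were found for Stmn1 (−0.50, adjusted p = 0.00051), Chp1 (−0.50, adjusted p = 1.02e-07) and Ckb (−0.44, adjusted p = 0.036), all by limma. Nudc, with a copy that rose by 3.79, had 97.1, 79.3 and 82.5 FPKM in C57BL/6J and 86.5, 108.5 and 107.4 in DBA/2J. These groups overlapped, with a difference of 0.22 (SE 0.13, limma adjusted p = 0.47). Over all strain means, Nudc was mostly higher where Nudc-ps1 was high (r = 0.804 on the log2 scale, over both clusters). The other genes named here were lower where their copy was high. Their r was −0.983 for Atp6v0c, −0.944 for Mrpl48, −0.911 for Chp1, −0.892 for Stmn1, −0.808 for Ckb (with TCONS_00250673) and −0.788 for Glul. The part of reads shared between copy and source in these differences was not tested.

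**Figure D4:**
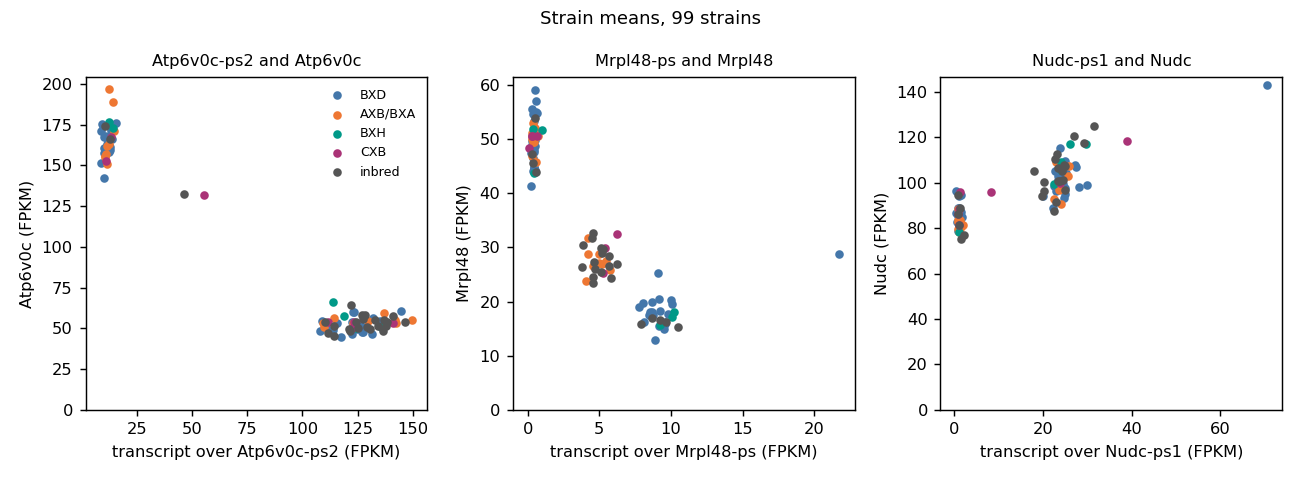
Strain means in FPKM of a source gene (vertical axis) against those of the transcript over its pseudogene (horizontal axis) for 99 strains, coloured by strain set. Atp6v0c had strain means from 44.97 to 66.04 FPKM in the strains with high Atp6v0c-ps2 and from 132 to 197 FPKM in all others. Mrpl48 lay lower in the strains with high Mrpl48-ps. Nudc lay between 75.4 and 143 FPKM and was mostly higher in the strains with high Nudc-ps1. Its highest mean, 143 FPKM in BXD-12/TyJ, includes mouse OB-547, and the next was 125 FPKM in BUB/BnJ. The single point at the right of the Mrpl48-ps and Nudc-ps1 panels is BXD-12/TyJ, whose copy means were 9.37 and 23.0 FPKM without mouse OB-547.

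Because strains parted into clusters for 18 of the 43 pairs of copy and source gene, correlations over strain means were computed within each cluster for these. The strains were parted by the copy where its means had the gap given above, and otherwise by the source gene at a smaller gap. Over both clusters together, r was negative in all of these pairs but those of Nudc (0.804) and Serpina3n (0.783). Of 36 relations within clusters 10 passed a 2-sided permutation test after Benjamini-Hochberg adjustment, 8 of them positive. In the 55 strains with high Nudc-ps1, Nudc rose with its copy (r = 0.585, rho = 0.474, permutation p = 1e-05, the smallest possible, adjusted p = 0.00018 for r and 0.00245 for rho, r = 0.417 without the 2 farthest strains). In the 33 strains with high Gm15772, Rpl26 rose with TCONS_00272888 (r = 0.585, rho = 0.631, permutation p = 0.00038 and 7e-05, adjusted p = 0.00282 for r and 0.00084 for rho, r = 0.606 without the 2 farthest). The negative value for the low cluster of Atp6v0c-ps2 (r = −0.463, 40 strains, permutation p = 0.00696, adjusted p = 0.0251 for r and 0.503 for rho at 0.152) rested on 2 strains, without which r was 0.335. In the 56 strains with high Mrpl48-ps, Mrpl48 fell as its copy rose (r = −0.757, rho = −0.706, r = −0.758 without the 2 farthest strains). The permutation p was 1e-05, the smallest possible, with adjusted p = 0.00018 for r and 0.00036 for rho. These strains parted again between 6.27 and 7.78 FPKM of the copy, so this r spans both parts.

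Of the 25 pairs without clusters, 6 passed the test over 99 strains, 4 positive and 2 negative. For Gm7868, a copy of the thioredoxin-like gene Txndc9, r was −0.612 and rho −0.494 (permutation p = 1e-05, the smallest possible, adjusted p = 0.000125 and 8.33e-05), and r was −0.579 without the 2 farthest strains. It was −0.601 in the BXD strains and −0.656 in the inbred strains but 0.025 in the AXB and BXA strains, so it did not hold in every set.

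The position against neighbouring genes was described by the nearest annotated gene of the assembly. Divergent from it were 70 transcripts, 44 lay upstream on its strand, 28 downstream on its strand, 29 were convergent, and 22 and 11 overlapped it on the same and the opposite strand. Those that did not overlap lay at a median of 53133 bp. The start was within 1000 bp of an annotated start on the opposite strand in 20 transcripts of 19 loci (9.8%, 95% Wilson interval 6.44 to 14.7%), against 13.3% of 12874 annotated genes. The starts of all annotated transcripts were used for the former, and only the outermost start of each gene for the latter. These shares are thus not measured alike, and they count transcripts and genes. The nearest of these were TCONS_00339535 with the chromatin regulator gene Ankrd11 (29 bp), TCONS_00290403 with the calcium channel gene Cacna1c (44 bp), TCONS_00305906 with Spty2d1 (68 bp), TCONS_00190804 with Qser1 (78 bp) and TCONS_00115266 with the focal adhesion kinase gene Ptk2 (81 bp). The RefSeq start of Cacna1c lies 87723 bp from the start of TCONS_00290403, so that this pair is head to head only by the start in the deposited assembly. Of these 5, those at Ankrd11, Spty2d1 and Ptk2 lay over genes that M21 lists as bidirectional promoter lncRNAs.

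The promoters at Ankrd11 and Spty2d1 are shown because the starts of gene and transcript lie back to back in them. They are the 200 bases before the RefSeq start of each gene on GRCm38.p6 (Ankrd11 at chr8:123042285-123042484 and Spty2d1 at chr7:47008415-47008614, − strand), and capitals mark the bases between the start of the transcript on the opposite strand and that of the gene.
Ankrd11: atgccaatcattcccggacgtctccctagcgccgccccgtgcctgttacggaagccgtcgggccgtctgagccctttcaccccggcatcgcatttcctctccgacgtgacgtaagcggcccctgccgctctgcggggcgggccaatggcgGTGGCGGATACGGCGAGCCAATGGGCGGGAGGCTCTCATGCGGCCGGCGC
Spty2d1: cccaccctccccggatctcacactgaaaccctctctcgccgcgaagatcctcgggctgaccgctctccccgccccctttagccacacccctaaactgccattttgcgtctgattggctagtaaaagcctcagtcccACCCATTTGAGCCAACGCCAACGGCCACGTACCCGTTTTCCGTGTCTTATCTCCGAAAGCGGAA

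A RefSeq promoter of 250 bases before to 50 bases after the start was at hand for 14 of the 19 genes, and in 13 of these, all but Cacna1c, the transcript started upstream within 1000 bp of the RefSeq start. The motif GGGCGG, searched on both strands, was in 12 of the 13 promoters and in 35.7% of 32851 promoters of the same length. CCAAT was in 7 of 13 (37.4% of all) and TATAAA in 0 of 13 (13.6% of all). The median number of CG dinucleotides was 37 against 7, and the median GC content 74.7% against 52.7%. These head to head transcripts were weakly expressed, with means from 0.536 FPKM at Qser1 to 2.10 ± 0.313 FPKM at Ankrd11 (SD, n = 281) among the nearest 5.

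Levels of the 204 transcripts were compared with those of their nearest annotated gene over 99 strain means, by permutation tests adjusted over 204 pairs. The permutations treat strains as independent, although strains of a set share parents and neighbouring genes are inherited together, so these p-values take no account of ancestry. There were 46 pairs called (22.5%), 28 positive and 18 negative, around a median r of 0.027. The share called was not computed for pairs of annotated genes, so 22.5% has no background here. Transcripts of 1 locus could share a neighbour, as those of XLOC_032069 share Thumpd1, so the 204 pairs are not independent. An absolute r of at least 0.5 was found in 15 pairs (7.35%), against 4.19% of 12874 pairs of nearest annotated genes, whose median r was 0.046. In 13 of the 46 pairs the strains fell into clusters, and within these only 1 of 26 relations passed. Strains were parted here by the level of the neighbour where it had a gap, which narrows its range within a cluster. The low cluster of TCONS_00082409 did not vary, so its relation could not pass. The high clusters of TCONS_00306826 and TCONS_00334751 held only 6 strains each.

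The relation that passed was between TCONS_00082409 over Serpina3e-ps and Serpina3n, an acute phase protease inhibitor gene on the same chromosome, 216216 bp away. The transcript of 144 nt, 98.6% identical to Serpina3n, was at 0 in 54 strains. Serpina3n is also its source gene, so this relation is the same as 1 of those between copies and source genes above. Of its 50-base words, 97.9% also occurred in another M21 gene, so its reads and those of Serpina3n cannot be fully told apart. In the 45 others r was 0.503 and rho 0.415 (permutation p = 0.00044 and 0.0049, adjusted p = 0.0114 for r and 0.127 for rho), and r was 0.429 without the 2 farthest strains.

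Among the pairs without clusters, TCONS_00080948 over Sfta3-ps (chr12:56500018-56516330, 6 exons, 1.41 ± 0.5001 FPKM) followed Nkx2-1, a transcription factor of the developing hypothalamus that lies 15628 bp upstream on the same strand. Over 99 strains r was 0.686 and rho 0.659 (permutation p = 1e-05, the smallest possible, adjusted p = 0.000107 and 0.00012), and r was 0.639 without the 2 farthest strains. It was positive in each set, at 0.737 in the BXD, 0.582 in the AXB and BXA and 0.388 in the inbred strains. Between mice of a strain it was weaker, at 0.177.

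TCONS_00019448 (0.843 ± 0.264 FPKM), just downstream of the peptidase gene Ecel1, had r = 0.579 and rho = 0.514 with it (permutation p = 1e-05, the smallest possible, adjusted p = 0.000107 and 0.00012, r = 0.512 without the 2 farthest strains). This r was 0.642 in the BXD and 0.646 in the AXB and BXA strains, −0.027 in the inbred strains, and 0.555 between mice of a strain. TCONS_00014464 and Desi2 had r = 0.755 and rho = 0.487 (the same permutation and adjusted p, r = 0.703 without the 2 farthest strains), with 0.860 in the inbred, 0.649 in the AXB and BXA and 0.110 in the BXD strains. TCONS_00036189, 223 bp from the ubiquitin ligase gene Rnf41, had r = −0.706 and rho = −0.502 (the same permutation and adjusted p, r = −0.677 without the 2 farthest strains), with −0.883 in the AXB and BXA, −0.771 in the inbred and 0.021 in the BXD strains. Of these 4 relations only that with Nkx2-1 was thus of 1 sign and above 0.3 in all 3 sets.

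Locus XLOC_032069 on chromosome 7 held 9 transcripts over Ppp1ccb, a transcribed copy of the phosphatase gene Ppp1cc, and Gm19963, divergent from Thumpd1, an RNA-modification gene, with the start of TCONS_00313498 at 9714 bp from it. Its transcripts did not move together. TCONS_00313498 had 0.718, 1.12 and 0.844 FPKM in C57BL/6J and 0 in all 3 DBA/2J mice (difference −0.92, SE 0.17, limma adjusted p = 4.56e-05), whereas TCONS_00313505 had 0.309, 0.334 and 0.415 FPKM in C57BL/6J and 3.06, 2.19 and 3.50 in DBA/2J (difference 1.52, SE 0.19, limma adjusted p = 5.98e-11). In neither did the groups overlap, and the directions were opposite.

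Thumpd1 had 17.1, 15.5 and 15.1 FPKM in C57BL/6J and 11.5, 11.1 and 11.5 in DBA/2J (difference −0.45, SE 0.11, limma adjusted p = 0.0045), also without overlap. A/J had the DBA/2J pattern, with 0 FPKM of TCONS_00313498 in all 3 mice and 9.95, 9.65 and 11.8 FPKM of Thumpd1. The strains parted into 45 with low and 54 with high Thumpd1, and none of the 18 correlations of the 9 transcripts with Thumpd1 within these clusters passed the test. Over all strains, TCONS_00313498 had a mean below 0.1 FPKM in 43.

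**Figure D5:**
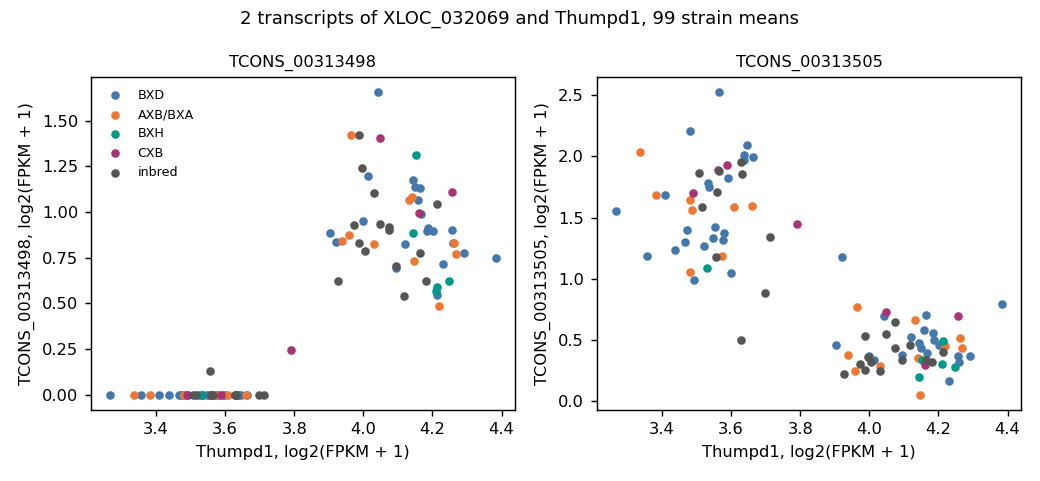
Strain means of log2(FPKM + 1) of TCONS_00313498 (left) and TCONS_00313505 (right) against those of Thumpd1 for 99 strains, coloured by strain set. The strains formed a cluster of 45 with low Thumpd1 and one of 54 with high Thumpd1, in which TCONS_00313498 was high and TCONS_00313505 low.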

How the data were processed

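The data were FPKM of each transcript and gene in each mouse and the exons of the merged assembly. The authors checked reads with FastQC, aligned them to mm10 with STAR 2.3.1, with up to 10 places per read, built an assembly for each strain from its pooled mice with Cufflinks 2.2.0, joined these to GENCODE M2 with Cuffmerge, and scaled the deposited FPKM between mice with Cuffnorm 2.2.1. The table holds features with values over 0 in 100 or more mice and over 1 in 50 or more, as checked on the values. No column was unmatched (0 columns).

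The members and all lists were chosen with earlier results of these data known. A pair of columns of CXB-6/ByJ that held 1 library was averaged, and OB-627, labelled with more than 1 strain, entered no comparison. FPKM were fitted as log2(FPKM + 1) on all transcripts with R 4.3.3 and its package limma 3.58.1, without covariates and with the spread shared over all strains, so that a fold of a low transcript is understated. The strain share is the intraclass correlation. Positions and copies were found with pandas 2.3.3, numpy 2.4.6 and scipy 1.17.1 under Python 3.11.15, from GENCODE M21 (GRCm38), in which 99.9% of 227571 known introns were present, and RefSeq promoters, with blastn 2.17.0+ over at least 100 bases. Figures were drawn with matplotlib 3.10.9. Correlations used 2-sided permutation tests with 100000 resamples, and the smallest p is 1e-05. They shuffle strains freely and do not model the ancestry that strains share. Replicates are labelled as separate mice.

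Transcripts were named by a rule of highest level, largest strain share, greatest length, exon number, members per locus, nearest opposite start, largest difference between the parents and highest or lowest r with the neighbour. TCONS_00037030, TCONS_00272888 and the Gm7868 pair were chosen after their values were seen. Strain clusters and sums per gene were added after seeing the data. On simulated data over 51024 transcripts, the strain test recovered 100% of 200 transcripts with a strain share of 0.5, with 3.38% of calls false, and the test of the parents recovered 32% of differences of 3 SD and 100% of 6 SD, with 6.41% of calls false. Alternatives covered the pseudocount, low values, scaling, covariates, replicates, libraries, strain sets and the choice of transcripts.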

Additional observations from a re-analysis of the deposited data

How the results depend on the processing

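Of 60 alternatives for the counts and shares above, 45 stayed within the limit of 1.5 times or the spread, and 15 moved. The share of the 204 transcripts with a strain difference was 21.1% in the AXB and BXA strains alone and 37.7% in the inbred strains alone, where 5.09% and 15.9% of all transcripts passed, from fewer mice. Without replicate 1, 2 or 3 it lay between 41.7 and 51.0%, where 24.2 to 33.0% of all transcripts passed, and between 61.2 and 71.9% for loci. Between DBA/2J and C57BL/6J, 16 transcripts were called with the spread of the 6 mice alone (527 of all transcripts), 7 among those with no exon over a pseudogene, 16 among those with a shorter end exon over 15 nt, and 24 to 27 without 1 of the mice (674 to 850 of all transcripts, against 985 with all). Replicate numbers were given in accession order and pair nothing (deviations of same-numbered mice had r = −0.027, −0.022 and 0.008), and with the replicate block 27 transcripts were called, with 0 lost and 0 gained. Neighbour correlations called were 78 over single mice, 28 in the BXD, 9 in the AXB and BXA and 12 in the inbred strains. The share with 2 exons was 66.9% with 1 transcript per locus, 77.4% above 0 in all mice and 66.04% with no M21 exon. The head to head share was 15.2% with all M21 genes, and the share with at least 50% of words elsewhere was 24.5% for 30 and 10.7% for 75 bases. Of 846 alternatives for named transcripts, 710 kept their call, 113 lost it, 20 gained it and 3 changed sign, namely Ecel1 in the inbred (−0.027), Rnf41 in the BXD (0.021) and Txndc9 in the AXB and BXA strains (0.025). The causes were not tested. Words were searched in M21 transcripts only, and FPKM give no depth per transcript.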

Other observations

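Genes of other chromosomes whose levels varied most like the named transcripts between mice of a strain are given as a description, over the mice of strains with at least 2 mice, which share libraries and scaling. The highest r of these was 0.762, of Gm5506 with the transcript over Atp6v0c-ps2. Cst3, which encodes an abundant secreted protease inhibitor, had 0.702 with the transcript over Gm12892, and Cmip had 0.676 with the transcript over Lsamp. Gm10260 was among the 3 nearest for Gm20056 (0.643), Gm11942 (0.710) and Nudc-ps1 (0.560). The transcript of 122 nt on chromosome 7, TCONS_00321749, had no value above 0.303.

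The mouse OB-627, whose labels name both AXB-6/PgnJ and AXB-8/PgnJ, was in no comparison. The transcript over Gm11942 had 28.7 FPKM in it, with means of 0.0925 in 2 mice of AXB-6/PgnJ and 31.3 in 2 mice of AXB-8/PgnJ. Mrpl48-ps had 0.225 FPKM, with means of 4.95 and 0.384. Atp6v0c-ps2 had 9.22 FPKM, with means of 142 and 14.3.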
